A study of Homo sapiens with 72 samples.

Results

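The 10 genes followed here, chosen by symbol, belong to the actin and myosin apparatus that marks contractile fibroblasts: ACTA2, TAGLN, CNN1, MYL9, TPM1, TPM2, ACTG2, CALD1, LMOD1 and MYH9. They are 10 of the 23170 genes with a count, and 9 of them passed the filter on low counts that left 14264 genes for testing. The sample was wildtype normal human dermal fibroblasts, primary skin cells, grown in a 384-well plate and held for 24 hours with omaveloxolone or with its solvent DMSO. Omaveloxolone is a triterpenoid that binds KEAP1 and so activates the transcription factor NRF2. The 3′ ends of polyadenylated RNA were counted by DRUG-seq, a barcoded method for lysates of multiwell plates, in 32 DMSO wells and in 4 wells at each of 10 doses (0.0005, 0.002, 0.005, 0.014, 0.04, 0.12, 0.37, 1.11, 3.33 and 10 µM). The labels call the wells biological replicates but name no separate donors or cultures, so p-values measure the spread between wells, which may be technical. The plate design put all treated wells in rows K and L, and the DMSO wells in columns 2 and 23 of every row.

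Skin fibroblasts in culture carry stress fibres made of non-muscle actin and myosin II. During wound healing and fibrosis some skin fibroblasts become myofibroblasts, with smooth muscle actin and other smooth muscle proteins in their stress fibres. Myofibroblasts pull on the collagen around them. Many of the genes are targets of serum response factor (SRF), which binds the CArG box in promoters together with coactivators of the myocardin family (MRTFA, MRTFB, MYOCD). Of these, MRTFA and MRTFB are held in the cytoplasm by free actin monomers and enter the nucleus when actin assembles into filaments. The 10 genes cover the filament itself (ACTA2, ACTG2), the proteins that lie along it (TPM1, TPM2, CALD1, CNN1, TAGLN), the filament nucleator LMOD1, and the motor (the heavy chain MYH9 and the regulatory light chain MYL9).

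RefSeq promoter windows on GRCh38.p14, of 250 bases before an annotated start, were found for 8 of the 10 genes, 13 windows in all, with none for TAGLN and MYL9. They were searched for the CArG box on both strands. It occurred in 1 of the 13 windows, that of ACTG2 (1 of the 8 genes), and in 1.16% of 35116 windows of all genes. With up to 1 base of the A and T core replaced it occurred in 3 of the 13 windows and in 7.04% of all windows, a search that includes the exact boxes. These were 1 window each of ACTA2, ACTG2 and CALD1, so 3 of the 8 genes. The 3 windows below are shown because they contrast the gene that defines a myofibroblast (ACTA2), the gene with both exact boxes and almost no counts (ACTG2), and the gene with the steepest called fall (LMOD1). Capitals mark the CArG boxes, exact in ACTG2 and with 1 core base replaced in ACTA2, and LMOD1 held none in these letters.
ACTA2, the downstream of its 2 starts, chr10:88952774-88953023, minus strand: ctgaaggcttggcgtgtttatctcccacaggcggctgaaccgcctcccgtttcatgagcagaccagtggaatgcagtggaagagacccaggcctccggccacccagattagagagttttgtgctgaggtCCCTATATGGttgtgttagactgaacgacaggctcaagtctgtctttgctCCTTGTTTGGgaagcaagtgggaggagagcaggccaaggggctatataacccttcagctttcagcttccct
ACTG2, chr2:73892758-73893007, plus strand: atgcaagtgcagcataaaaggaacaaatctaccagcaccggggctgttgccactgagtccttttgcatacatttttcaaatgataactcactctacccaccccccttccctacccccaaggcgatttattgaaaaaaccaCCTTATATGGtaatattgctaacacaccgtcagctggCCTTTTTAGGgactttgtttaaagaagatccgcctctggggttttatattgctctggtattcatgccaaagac
LMOD1, chr1:201946549-201946798, minus strand: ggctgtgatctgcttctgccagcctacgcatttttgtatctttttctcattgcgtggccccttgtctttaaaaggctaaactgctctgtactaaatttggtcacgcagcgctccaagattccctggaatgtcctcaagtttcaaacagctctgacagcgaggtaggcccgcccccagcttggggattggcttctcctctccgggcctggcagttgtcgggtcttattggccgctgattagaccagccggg
The ACTG2 boxes began 110 and 73 bases before the start, and the ACTA2 matches began 121 and 71 bases before it.

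Counts per well, after one processed pseudogene was left out, ranged from 4910842 to 8685535 in DMSO and from 9311006 to 10386930 at 0.37 µM. They ranged from 1432737 to 1709990 at 1.11 µM, from 132318 to 208739 at 3.33 µM and from 25637 to 39396 at 10 µM. Levels are given as CPM, in which each well's counts are brought to the same total and adjusted by the trimmed mean of M values (TMM), which compares the makeup of the RNA and not its amount. In these bulk wells fewer cells and less RNA per cell cannot be told apart. NQO1, an NRF2 target used to check the treatment labels, stood at 419 ± 45.3 CPM in DMSO (SD, n = 32) and at 3382 ± 134 CPM at 0.12 µM (SD, n = 4). It stood at 5573 ± 71.8 CPM at 0.37 µM and at 410 ± 159 at 1.11 µM (log2 change -0.03, edgeR adjusted p = 0.90), and was lower than in DMSO at 3.33 µM (log2 change -1.04) and 10 µM (log2 change -4.17). At 0.0005 µM NQO1 was not called (log2 change 0.17), and it was called higher at each dose from 0.002 to 0.37 µM. NQO1 thus checks the labels from 0.002 to 0.37 µM only. HMOX1, a further gene of this check, was higher at 1.11 µM (log2 change 5.05, edgeR adjusted p = 7.1e-49). Its log2 change was -1.21 at 3.33 µM and 0.62 at 10 µM. The 12 fibroblast markers summed to between 71955 and 87013 CPM in the DMSO wells, and 0 of them were without counts. Of the 10 vascular smooth muscle and pericyte markers, 5 lay below 1 CPM in DMSO, among them MYH11 at 0.811 CPM and DES at 0.373 CPM. Above 1 CPM lay SMTN at 58.7 CPM, which made up most of their sum, ABCC9 at 5.52, CSPG4 at 4.42, KCNJ8 at 2.50 and NOTCH3 at 1.65.

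In untreated cells the genes fell into a well counted group and a sparse one. ACTA2 had between 149 and 276 CPM in the 32 DMSO wells, with a median of 200.6, so smooth muscle actin was detected in every well. MYL9 ranged from 246 to 353 CPM with a median of 299, TPM1 from 192 to 365 with a median of 279, and TPM2 from 412 to 628 with a median of 536. CALD1, which encodes the actin-binding caldesmon, ranged from 443 to 727 CPM with a median of 591, and MYH9 from 194 to 348 with a median of 274. The sparse genes were TAGLN, LMOD1, CNN1 and ACTG2. TAGLN, the actin-bundling transgelin, ranged from 0.479 to 27.5 CPM with a median of 12.8, and LMOD1, leiomodin 1, from 10.1 to 29.6 with a median of 15.6. CNN1, the smooth muscle calponin, ranged from 0 to 6.71 CPM with a median of 0.561. ACTG2, the enteric smooth muscle actin, gave 25 counts over all 32 DMSO wells and was not tested. CNN1 and ACTG2 therefore do not bear out a myofibroblast label for these cells at this depth, and the 10 genes are called contractile genes here. CPM of different genes are not set against each other, since no length was taken into account.

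**Figure D1:**
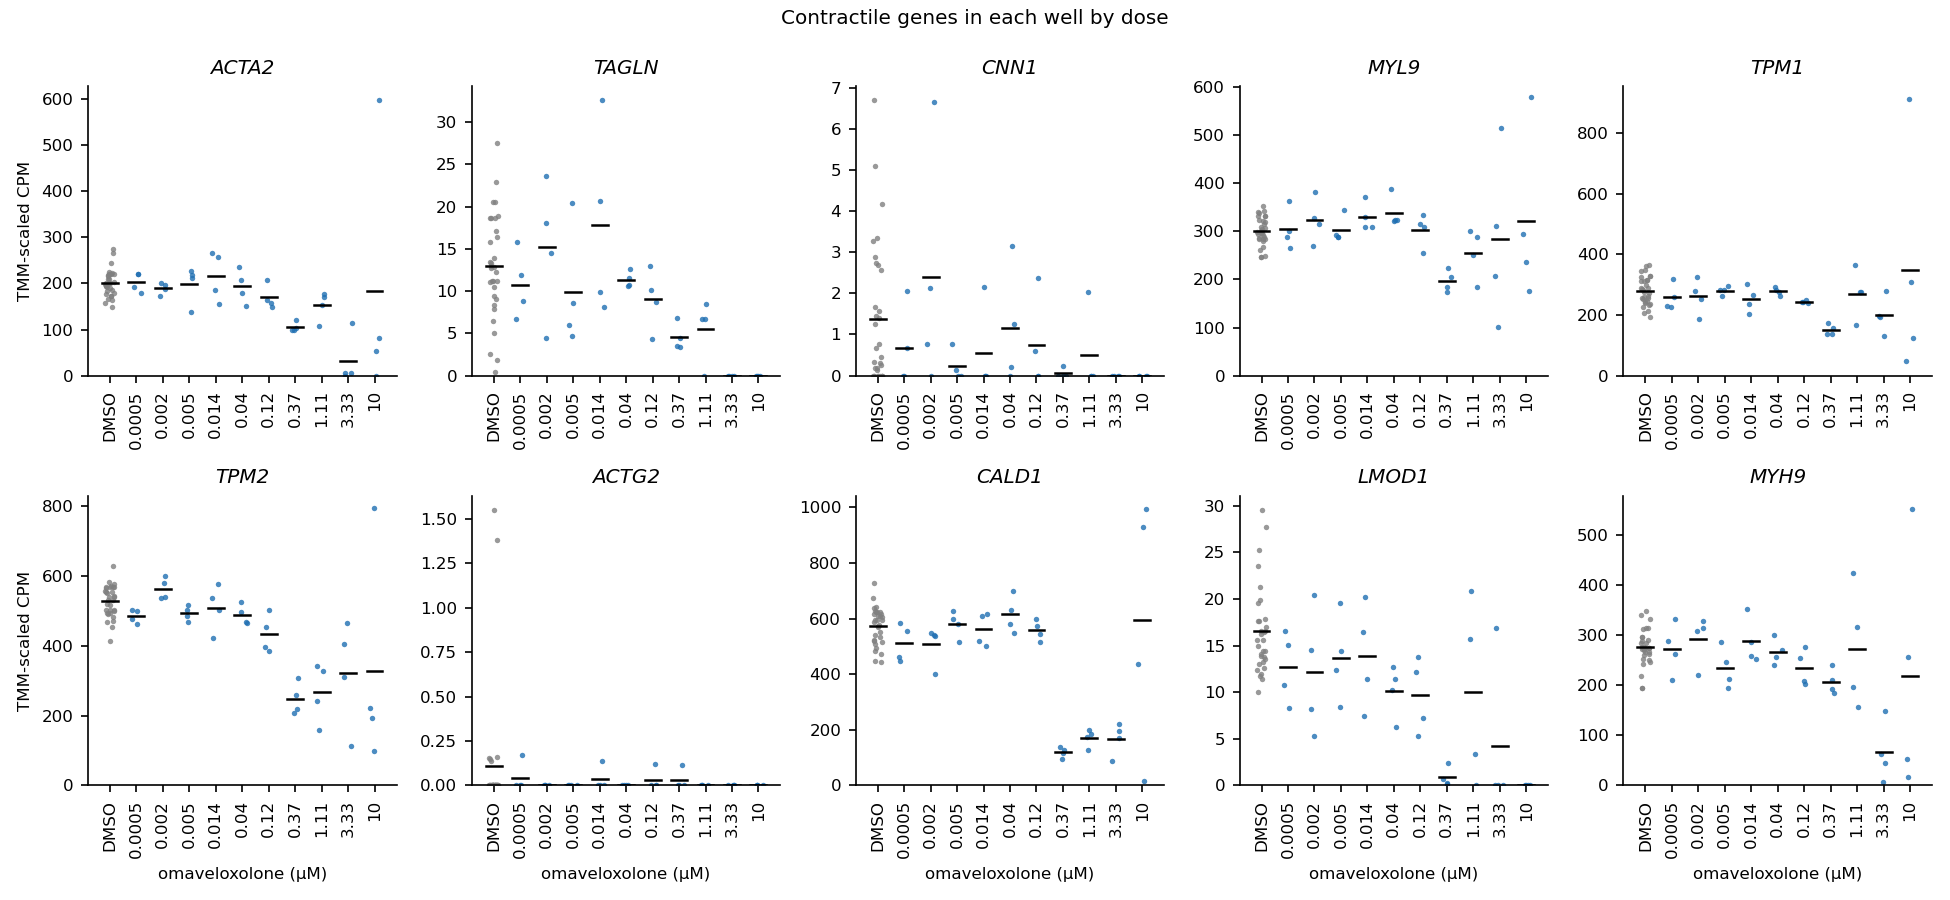
TMM-scaled CPM (vertical axes, from 0) of the 10 contractile genes in every well, by omaveloxolone dose in µM (horizontal axes). Grey points are the 32 DMSO wells, blue points the 4 wells of a dose, and black bars the means. CALD1, TPM2, TPM1, MYL9, ACTA2 and LMOD1 at 0.37 µM lie below every DMSO well, and the 3.33 and 10 µM wells scatter widely on few counts.

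From 0.0005 to 0.12 µM none of the 9 tested genes passed the threshold, an adjusted p under 0.05 in edgeR's quasi-likelihood test with Benjamini-Hochberg adjustment. At each of these 6 doses 0 of the 9 had an unadjusted p under 0.05, and DESeq2's Wald test also called 0. Over all 14264 genes the Wald test called 12, 8, 28, 69, 261 and 710 in order of rising dose. In the same order edgeR's test called 0.00701%, 0.0561%, 0.0771% and 0.217% of all genes at the 4 lowest doses. The share was 0.792% for 0.04 µM, with 0.603% rising and 0.189% falling. It was 2.33% for 0.12 µM, with 1.31% rising and 1.02% falling. At 0.12 µM the median log2 change of the 9 genes was -0.25, beside -0.07 over all genes. TPM2, the beta-tropomyosin, stood at 453, 397, 386 and 502 CPM in the 4 wells at 0.12 µM, of which 2 lay below the lowest DMSO well. Its log2 change there was -0.28 (95% interval -0.60 to 0.04), and it passed only when that dose and DMSO were fitted alone (edgeR adjusted p = 0.015). LMOD1 stood at 7.28, 12.2, 5.34 and 13.8 CPM, also with 2 wells below the lowest DMSO well and a log2 change of -0.78 (95% interval -1.64 to 0.08). Each of the 5 lower doses also had 1 or 2 wells of LMOD1 below that DMSO well. For CALD1 the interval at 0.12 µM was -0.38 to 0.30 and for MYL9 -0.27 to 0.30, so changes of these sizes are not excluded. The step from 0.04 to 0.12 µM gave 0 calls among the 9 genes by edgeR, 0 with an unadjusted p under 0.05, and 0.0140% over all genes.

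At 0.37 µM 7 of the 9 tested genes fell and 0 rose: LMOD1, CALD1, TAGLN, TPM2, ACTA2, TPM1 and MYL9. Over all genes 13.6% were called lower at this dose, 11.2% higher and 24.8% either way. The median log2 change of the 9 genes was -1.09, beside -0.14 over all genes. In 6 of the 9 genes all 4 wells lay below the lowest of the 32 DMSO wells, a pattern found in 5.19% of all genes tested. Of these, CALD1, LMOD1 and TPM2 kept their call under all 16 alternative settings tried. The other 4 calls were lost when the reference was limited to the 4 solvent wells in rows K and L, the rows of the treated wells. Over all genes the calls also went from 3533 of 14264 to 1231 of 13341 with this smaller reference. Standard errors went from 0.25 to 0.44 for ACTA2 and from 0.53 to 0.76 for TAGLN. They went from 0.15 to 0.27 for MYL9 and from 0.20 to 0.33 for TPM1. In those rows the log2 changes stayed negative, at -0.83 for ACTA2 (edgeR adjusted p = 0.27), -1.28 for TAGLN (adjusted p = 0.34), -0.64 for MYL9 (adjusted p = 0.13) and -0.92 for TPM1 (adjusted p = 0.073).

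Among the filament proteins, ACTA2 stood at 121, 99.2, 103.8 and 99.98 CPM in the 4 wells at 0.37 µM. All 4 wells lay below the DMSO range and the groups did not overlap. The mean was 106 ± 10.3 CPM (SD, n = 4) against 201.6 ± 28.7 in DMSO (SD, n = 32), a log2 change of -0.93 ± 0.25 (SE; edgeR adjusted p = 0.0034). ACTG2 gave 1 count over the 4 wells, a ratio to DMSO of 0.223 with a 95% counting interval from 0.00543 to 1.36, so no difference was detectable at this depth.

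The tropomyosins lie along the actin filament and set which other proteins bind it. TPM2 had 207, 259.8, 219 and 307 CPM at 0.37 µM, all below the DMSO range, and fell 2.13-fold (log2 change -1.09 ± 0.18, SE; edgeR adjusted p = 7.5e-07). TPM1, the alpha-tropomyosin, had 137, 174, 138 and 159 CPM, all below its DMSO range, and fell 1.85-fold (log2 change -0.89 ± 0.20, SE; edgeR adjusted p = 0.00037). CALD1 moved furthest among the well counted genes. It had 118, 95.9, 128 and 139.7 CPM, against a lowest DMSO well of 443, and fell 4.76-fold (log2 change -2.25 ± 0.21, SE; edgeR adjusted p = 7.3e-15).

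TAGLN stood at 3.54, 3.42, 6.83 and 4.40 CPM at 0.37 µM, inside the wide DMSO range but below the DMSO median in 4 of 4 wells. Its log2 change was -1.50 ± 0.53 (SE; edgeR adjusted p = 0.030). This call was lost in 9 of the 16 alternatives, among them leaving out replicate 1, 2 or 4 of the dose (adjusted p between 0.084 and 0.11). CNN1 gave 2 counts over the 4 wells, both in replicate 2, where the DMSO wells gave 286. The ratio was 0.0390 with a 95% counting interval from 0.0047 to 0.142, and the log2 change of -4.18 ± 1.80 (SE) missed the threshold (edgeR adjusted p = 0.080). CNN1 passed by DESeq2's Wald test (adjusted p = 0.038) and with dose and DMSO alone (edgeR adjusted p = 0.048), and its log2 change turned to 0.49 with plate position as a block (edgeR adjusted p = 0.93). LMOD1, which starts new actin filaments in smooth muscle, stood at 2.40, 0.110, 0.204 and 0.716 CPM, from 21, 1, 2 and 7 counts. All 4 wells lay below the lowest DMSO well of 10.1 CPM, and the log2 change was -4.25 ± 0.59 (SE; edgeR adjusted p = 1.5e-08), or -5.49 without replicate 1.

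The 2 myosin genes moved least. MYL9, whose phosphorylation switches the motor on, had 205.7, 174, 224 and 185 CPM at 0.37 µM, all below its DMSO range. It fell 1.53-fold (log2 change -0.61 ± 0.15, SE; edgeR adjusted p = 0.0014). With DESeq2's size factors in place of TMM its log2 change was -0.36 and the call was lost (edgeR adjusted p = 0.070). MYH9 had 184, 211, 194 and 240.4 CPM, of which 2 wells lay below the lowest DMSO well and 2 inside the range. Its log2 change of -0.41 ± 0.21 (SE) did not pass (edgeR adjusted p = 0.15), with a 95% interval from -0.82 to -0.00. It passed with that dose and DMSO fitted alone (edgeR adjusted p = 0.0016) and without the 3.33 and 10 µM wells (edgeR adjusted p = 0.013).

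The choice of scale mattered most for the small changes, since total counts per well at 0.37 µM were 148% of the DMSO mean. DESeq2's size factors moved the median log2 change of all genes from -0.14 to 0.11, and the share of higher genes among all calls from 45.1% to 63.4%. All 9 log2 changes were negative under both. On raw counts per well, MYL9 at 0.37 µM averaged 94.9% and MYH9 107% of DMSO, while ACTA2 averaged 75.9%, TPM1 78.0% and TPM2 68.2%. CALD1 averaged 30.2% of DMSO and LMOD1 7.21%. Beside these falls all 12 fibroblast markers were called lower at 0.37 µM and summed to between 34845 and 39415 CPM, and their part in the result was not tested. The smooth muscle and pericyte markers summed to between 47.8 and 69.9 CPM, inside the range of 53.6 to 108 in DMSO except at the low end, with 0 of 9 tested markers called and 1 of 10 at 0 counts. Melanocyte markers summed to between 5.09 and 9.01 CPM against 12.6 to 66.2 in DMSO (1 of 2 tested lower), immune markers to between 90.2 and 98.03 against 93.9 to 184 (2 of 3 lower) and keratinocyte markers to between 471 and 516 against 343.9 to 587 (1 of 3 higher). Most of each sum at 0.37 µM came from a single gene: MITF averaged 5.61 CPM (36.1 in DMSO), CD68 92.1 (135) and KRT10 479 (447). The part of these lists in the result was not tested.

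**Figure D2:**
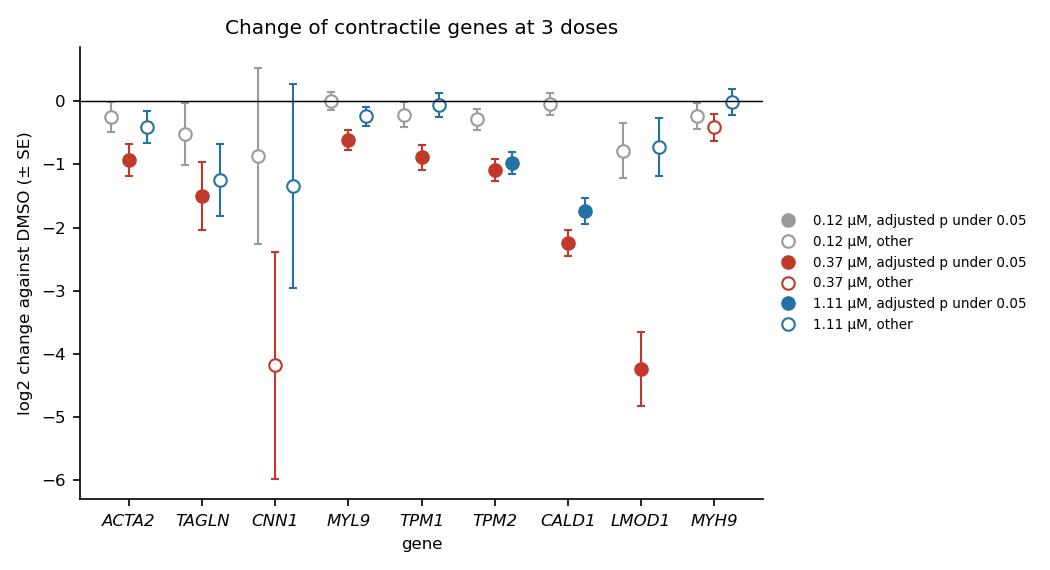
Log2 change against DMSO with its standard error (vertical axis) for the 9 tested contractile genes at 0.12 µM (grey), 0.37 µM (red) and 1.11 µM (blue). Filled points have an edgeR adjusted p under 0.05; CALD1 and TPM2 are filled at 0.37 and 1.11 µM, and none is filled at 0.12 µM.

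The ratio of counts of a gene pair within a well does not depend on scaling. CALD1 gave 1.92 ± 0.254 counts per MYL9 count in DMSO (SD, n = 32), with a range from 1.497 to 2.54. At 4 of the 6 lower doses 1 of the 4 wells lay below that range, the lowest at 1.05, in the 0.002 µM group. At 0.12 µM the 4 wells had 1.93, 1.63, 2.15 and 1.72. At 0.37 µM they had 0.574, 0.5501, 0.573 and 0.757, and at 1.11 µM 0.661, 0.743, 0.444 and 0.956, all below every DMSO well. CALD1 was thus lower relative to MYL9 at these 2 doses, whatever the scale. At 10 µM the 4 wells together gave 158 CALD1 and 79 MYL9 counts. ACTA2 per MYL9 count ranged from 0.463 to 0.589 at 0.37 µM, inside the DMSO range of 0.450 to 0.937. All 4 of these wells lay below the DMSO median of 0.664, so an equal change of these genes is not shown either. TPM1 per TPM2 count was 0.659, 0.668, 0.631 and 0.516 at 0.37 µM, where the DMSO wells ranged from 0.380 to 0.667, so 3 wells lay inside that range and 1 at its upper edge. At 1.11 µM it was 2.32, 0.506, 0.808 and 1.14, with 3 of the 4 wells above the DMSO range. These pairs were chosen after their values were seen and were not tested.

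**Figure D3:**
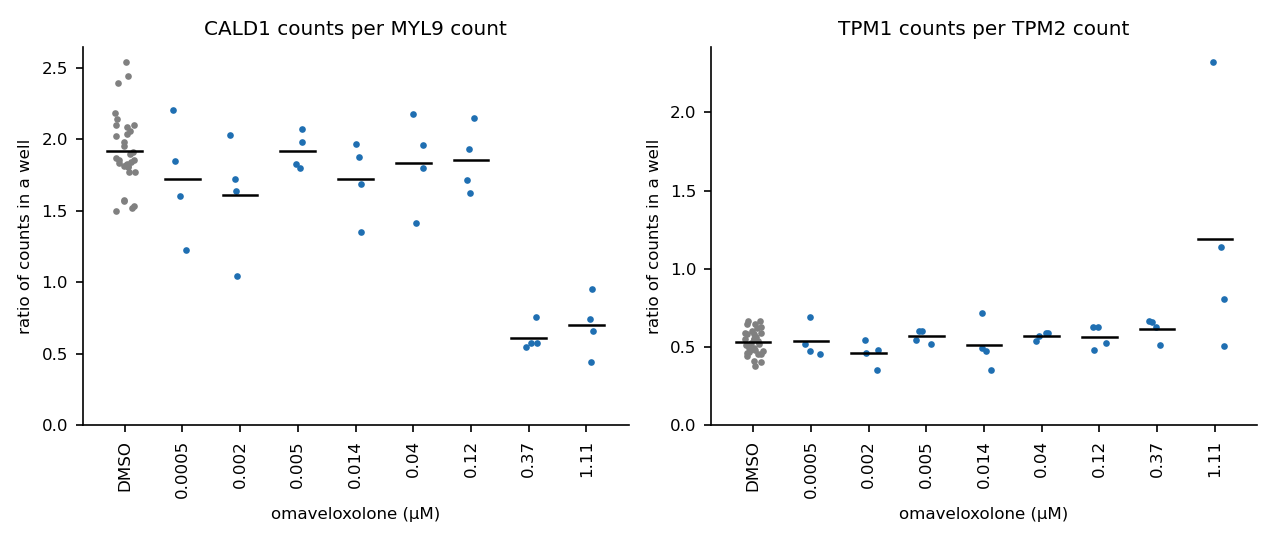
Counts of CALD1 per MYL9 count and of TPM1 per TPM2 count in each well (vertical axes, from 0) by dose in µM up to 1.11. Grey points are DMSO wells, blue points treated wells, bars the means. CALD1 per MYL9 lies between 0.444 and 0.956 at the last 2 doses and between 1.497 and 2.54 in DMSO.

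The step from 0.12 to 0.37 µM compares treated wells of rows K and L with each other and does not use the DMSO wells as its reference. In it 4 of the 9 genes fell and 0 rose, beside 5.60% of all genes called lower, 2.52% higher and 8.13% either way. CALD1 fell 4.63-fold (edgeR adjusted p = 2.7e-11). The log2 change was -3.47 for LMOD1 (edgeR adjusted p = 3.3e-05), -0.81 for TPM2 (edgeR adjusted p = 0.0083) and -0.62 for MYL9 (edgeR adjusted p = 0.033). CALD1 and LMOD1 kept these calls in every alternative fit of this step, while those of TPM2 and MYL9 were lost with DESeq2's size factors (edgeR adjusted p = 0.13 and 0.33). For LMOD1 the log2 change was -4.70 without replicate 1 of the dose. The calls of TPM2 and MYL9 were lost also without replicate 1 of the dose, at adjusted p = 0.050 for TPM2 and 0.063 for MYL9, and MYL9 was lost without replicate 2 or 4 as well (0.13 and 0.11). ACTA2 and TPM1 were also called lower when the 2 doses were fitted alone (edgeR adjusted p = 0.0051 and 0.0012) and without the 3.33 and 10 µM wells (edgeR adjusted p = 0.0017 and 0.0025).

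At 1.11 µM, on 23.5% of the DMSO mean of total counts, 2 of the 9 genes were lower than in DMSO and 0 were higher, beside 13.2% of all genes called lower, 9.76% higher and 23.0% either way. CALD1 stood at 199, 186, 128 and 175 CPM, all below the DMSO range, with a log2 change of -1.74 ± 0.20 (SE; edgeR adjusted p = 1.2e-10). TPM2 stood at 158, 329, 341 and 243 CPM, again all below the DMSO range, with a log2 change of -0.98 ± 0.18 (SE; edgeR adjusted p = 1.4e-05). Both kept the call in all 16 alternatives. Having all 4 wells below the lowest DMSO well was seen in 3.32% of all genes.

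The other genes at 1.11 µM overlapped the DMSO range. ACTA2 stood at 107.5, 178, 171 and 154 CPM, with 3 wells inside that range, and its log2 change was -0.40 (95% interval -0.89 to 0.08). It passed when the 3.33 and 10 µM wells were left out of the fit (edgeR adjusted p = 0.012). TPM1 stood at 366, 166, 276 and 276 CPM with a log2 change of -0.05 (95% interval -0.43 to 0.32), and MYH9 at 317, 424, 196 and 156 with -0.01 (-0.42 to 0.39). MYL9 stood at 301, 249.9, 287 and 183 CPM with a log2 change of -0.24 (-0.54 to 0.06). LMOD1 differed most between its wells, which held 27, 21, 0 and 5 counts, or 20.9, 15.7, 0 and 3.40 CPM. TAGLN had 11, 9, 8 and 0 counts and CNN1 3 counts, all in replicate 4.

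From 0.37 to 1.11 µM 2 of the 9 genes rose and 0 fell, beside 12.1% of all genes called higher, 13.4% lower and 25.4% either way. LMOD1 rose by 3.52 ± 0.64 on the log2 scale (SE; edgeR adjusted p = 1.3e-05), in 3 of 4 wells, or by 2.88 without replicate 1. TPM1 rose by 0.84 ± 0.25 (SE; edgeR adjusted p = 0.0093), with 3 of 4 wells at 1.11 µM above all 4 wells at 0.37 µM. The TPM1 call was lost without replicate 1 of the higher dose (edgeR adjusted p = 0.067) and that of LMOD1 when the 2 doses were fitted alone (edgeR adjusted p = 0.10). CALD1 changed by 0.51 (95% interval 0.05 to 0.97; edgeR adjusted p = 0.099) and TPM2 by 0.11 (-0.32 to 0.53). The fibroblast markers summed to between 71781 and 85311 CPM at 1.11 µM, most of it from VIM with a mean of 51317. Single markers of this list went both ways. COL6A1 averaged 4314 CPM against 1762.5 in DMSO and DCN 8148 against 4691, while S100A4 averaged 1275 against 2431 and COL3A1 420 against 1215. The smooth muscle and pericyte markers summed to between 76.5 and 153, and the part of both lists in these differences was not tested.

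At 3.33 µM 6 genes were called lower and 0 higher, where 32.9% of all genes were called lower, 7.35% higher and 40.2% either way, and the median log2 change of all genes was -2.32, against -1.97 for the 9 genes. ACTA2 gave 20, 0, 1 and 1 counts in the 4 wells, a log2 change of -2.70 ± 0.40 (SE; edgeR adjusted p = 9.1e-08), or -5.76 without replicate 1, which held 20 of the 22 counts. MYH9 gave 11, 1, 8 and 31 counts (3.996-fold lower; edgeR adjusted p = 1.1e-07; log2 change -2.82 without replicate 4), and CALD1 15, 26, 39 and 41 (log2 change -1.77 ± 0.23, SE; edgeR adjusted p = 2e-09). TPM2, with 54, 62, 20 and 97 counts, was called at a log2 change of -0.71, and lost the call without replicate 3 and in rows K and L (edgeR adjusted p = 0.066 in both) and with the replicate number as a block (edgeR adjusted p = 0.068). TAGLN had 0 counts in all 4 wells, which makes it at least 3.07-fold lower at a floor of 3 counts over the group. LMOD1 had 3 counts, all in replicate 3, and its call was lost in 11 alternatives, among them without replicate 1, 2 or 4 (edgeR adjusted p between 0.12 and 0.15). MYL9 gave 36, 79, 18 and 65 counts with a log2 change of -0.10 (95% interval -0.43 to 0.24), and was called lower without replicate 2 (log2 change -0.53, edgeR adjusted p = 0.015). TPM1, with 34, 30, 50 and 27 counts, had a log2 change of -0.49 that missed the threshold, and was called lower without replicate 3 (log2 change -0.71, edgeR adjusted p = 0.028). The step from 1.11 to 3.33 µM called ACTA2, MYH9 and TAGLN lower, 3 of 9, beside 27.6% of all genes lower, 7.12% higher and 34.7% either way. In this step ACTA2 had a log2 change of -2.30, or -5.36 without replicate 1, and MYH9 -1.99, or -2.80 without replicate 4. The step called 0 of 6 testable genes when the 2 doses were fitted alone, and TAGLN was lost without any 1 of the 4 replicates (edgeR adjusted p between 0.087 and 0.10). Without replicate 3 this step also called LMOD1 lower and TPM2 higher (edgeR adjusted p = 0.012 and 0.048).

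At 10 µM, with 0.463% of the DMSO total, 3 genes were called lower and 0 higher, beside 31.8% of all genes called lower, 3.36% higher and 35.2% either way. TPM2 gave 6, 59, 11 and 14 counts. TAGLN and LMOD1 had 0 counts in all 4 wells, which makes them at least 1.10-fold and 1.41-fold lower. ACTA2 gave 5, 4, 0 and 38 counts and CALD1 1, 69, 25 and 63, and MYH9 1, 19, 3 and 35. Without replicate 4, ACTA2 (log2 change -2.11) and MYH9 (log2 change -1.25) were called lower and TPM1 (0.68) higher, and without replicate 1 CALD1 was called higher (0.47) and TPM1 lower (-0.76). TPM2 lost its call without replicate 1, 3 or 4, TAGLN without any 1 of the 4, and LMOD1 without replicate 2. DESeq2's Wald test called 5 genes higher and 0 lower at this dose, and edgeR with DESeq2's size factors called 3 higher (MYL9, TPM1 and CALD1) and 0 lower. Over all 14264 genes the Wald test called 927 higher and 2236 lower, and size factors gave 936 higher and 2022 lower. Of the 3 genes called lower, TPM2 turned to a log2 change of 0.21 with size factors. TAGLN and LMOD1, with 0 counts, stayed negative there (-9.16 and -9.52). The direction of TPM2 at 10 µM thus differed with the scaling, and that of TPM1 with the well left out.

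Of 113 other genes in 7 lists of the actin and myosin apparatus, 112 had a count and 102 were tested. The 0.12 µM wells had 1 higher and 4 lower, where 1.31% and 1.02% of all genes were. The 0.37 µM wells had 12 higher and 31 lower, beside 11.2% and 13.6% of all genes, and the 1.11 µM wells 22 and 18, beside 9.76% and 13.2%. Their median log2 change was -0.29 at 0.37 µM and 0.01 at 1.11 µM, beside -1.09 and -0.73 for the contractile genes. The difference between the lists was not tested. Of the genes named from these lists, 24 were called at 0.37 µM, and 14 of them kept the call against the solvent wells in rows K and L. At 1.11 µM 11 of 27 kept it, and at 0.12 µM 1 of 5, TMSB4X. Over all genes that reference gave 1231 calls at 0.37 µM, 982 at 1.11 µM and 48 at 0.12 µM. The main fit gave 3533, 3277 and 332.

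The myosin list held 8 tested genes, of which 4 fell and 0 rose at 0.37 µM. MYLK, the kinase that phosphorylates MYL9, went from 56.0 ± 10.6 CPM in DMSO (SD, n = 32) to 24.9 ± 3.87 at 0.12 µM and 7.25 ± 2.88 at 0.37 µM (SD, n = 4). All 4 wells at both doses lay below the lowest DMSO well of 33.1 CPM. Its log2 change was -1.17 ± 0.27 at 0.12 µM (SE; edgeR adjusted p = 0.0045) and -2.94 ± 0.32 at 0.37 µM (SE; edgeR adjusted p = 4e-12). The call at 0.37 µM was kept in rows K and L, and that at 0.12 µM was lost there. MYH10, the heavy chain of non-muscle myosin IIB, fell from 61.2 ± 14.2 to 15.4 ± 2.44 CPM at 0.37 µM. The essential light chain MYL6 stood at 1158 ± 81.4 CPM in DMSO and 239 ± 38.7 at 1.11 µM, where its log2 change was -2.27 ± 0.15 (SE; edgeR adjusted p = 1e-22).

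Of the other actins ACTB, the cytoplasmic beta-actin, fell by 0.52 on the log2 scale at 0.37 µM (edgeR adjusted p = 4.4e-07), from 7608 ± 562 to 5293 ± 152 CPM. At 1.11 µM ACTG1, the cytoplasmic gamma-actin, rose by 0.66 (edgeR adjusted p = 4.6e-10), with all 4 wells above the DMSO range. Among 13 tested thin filament genes 2 rose and 4 fell at 0.37 µM. CNN2, the calponin of non-muscle cells, fell from 205 ± 29.5 to 77.0 ± 16.5 CPM, and the capping protein subunit CAPZB from 635 ± 51.5 to 338 ± 28.6. TPM3, a further tropomyosin, rose from 298 ± 38.5 to 536 ± 70.1 CPM, the opposite direction to TPM1 and TPM2, though its call was lost in rows K and L. TMOD1, a pointed-end capping protein of the same family as LMOD1, was singled out after its values were seen. It had 6 counts over the 32 DMSO wells and 729 over the 4 wells at 0.37 µM, between 13.5 and 24.2 CPM in each, and 7 at 0.12 µM and 0 at 1.11 µM. At 0.37 µM TMOD1 thus stood above its DMSO level and LMOD1 below its own.

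Of 17 genes of actin assembly and turnover 3 rose and 4 fell at 0.37 µM. PFN2, a profilin that binds actin monomers, went from 107 ± 24.4 to 259 ± 46.9 CPM at 0.12 µM and 633 ± 60.2 at 0.37 µM, and to 183 ± 66.0 at 1.11 µM. TMSB4X, thymosin beta-4, which sequesters monomers, went from 15205 ± 1401 to 10933 ± 505 and 5171 ± 321 CPM at these doses, and stood at 13678 ± 476 at 1.11 µM. The filament-severing gelsolin, GSN, fell from 744 ± 65.7 to 198 ± 23.1 CPM at 0.37 µM.

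Among 37 stress fibre and focal adhesion genes 5 rose and 16 fell at 0.37 µM. FHL1, a LIM-domain protein, went from 182 ± 25.0 CPM to 75.8 ± 6.65 at 0.12 µM and 38.1 ± 8.96 at 0.37 µM, with all wells of both doses below the DMSO range. SORBS3, the vinculin-binding vinexin, fell from 42.9 ± 6.37 to 8.49 ± 2.48 CPM at 0.37 µM. CRYAB, a small heat shock protein that binds filaments, rose from 523 ± 55.3 to 4663 ± 2060 CPM at 0.37 µM and 7067 ± 1125 at 1.11 µM. At 1.11 µM 9 genes of this list rose and 3 fell, among them the integrin subunit ITGB1, from 541 ± 106 to 1120 ± 103 CPM, and SYNPO2, from 68.7 ± 20.2 to 18.1 ± 16.1.

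SRF and its coactivators gave 1 call in 9 tested genes at 0.37 µM, the target and cofactor FHL2 (log2 change -0.52, edgeR adjusted p = 0.042), lost in rows K and L. SRF itself stood at 35.5 ± 6.51 CPM in DMSO and 36.2 ± 13.4 at 0.37 µM. MRTFA had 7.16 ± 2.37 CPM in DMSO and 12.1 ± 3.54 at 0.37 µM (log2 change 0.76, edgeR adjusted p = 0.16), and MRTFB had 10.5 ± 7.22 and 3.53 ± 3.05 (log2 change -1.57, edgeR adjusted p = 0.086). At 1.11 µM the log2 change was -2.23 for MRTFA, -2.54 for MRTFB and -0.76 for SRF, all called lower and all lost in rows K and L. FHL2 was lower at 0.12 µM (log2 change -0.70, edgeR adjusted p = 0.037) but higher at 1.11 µM (log2 change 0.81, edgeR adjusted p = 0.00025), and these calls were lost there too. The call at 0.12 µM was also lost without replicate 1, 2 or 3 of the dose (edgeR adjusted p = 0.15, 0.29 and 0.11). MYOCD was not tested.

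**Figure D4:**
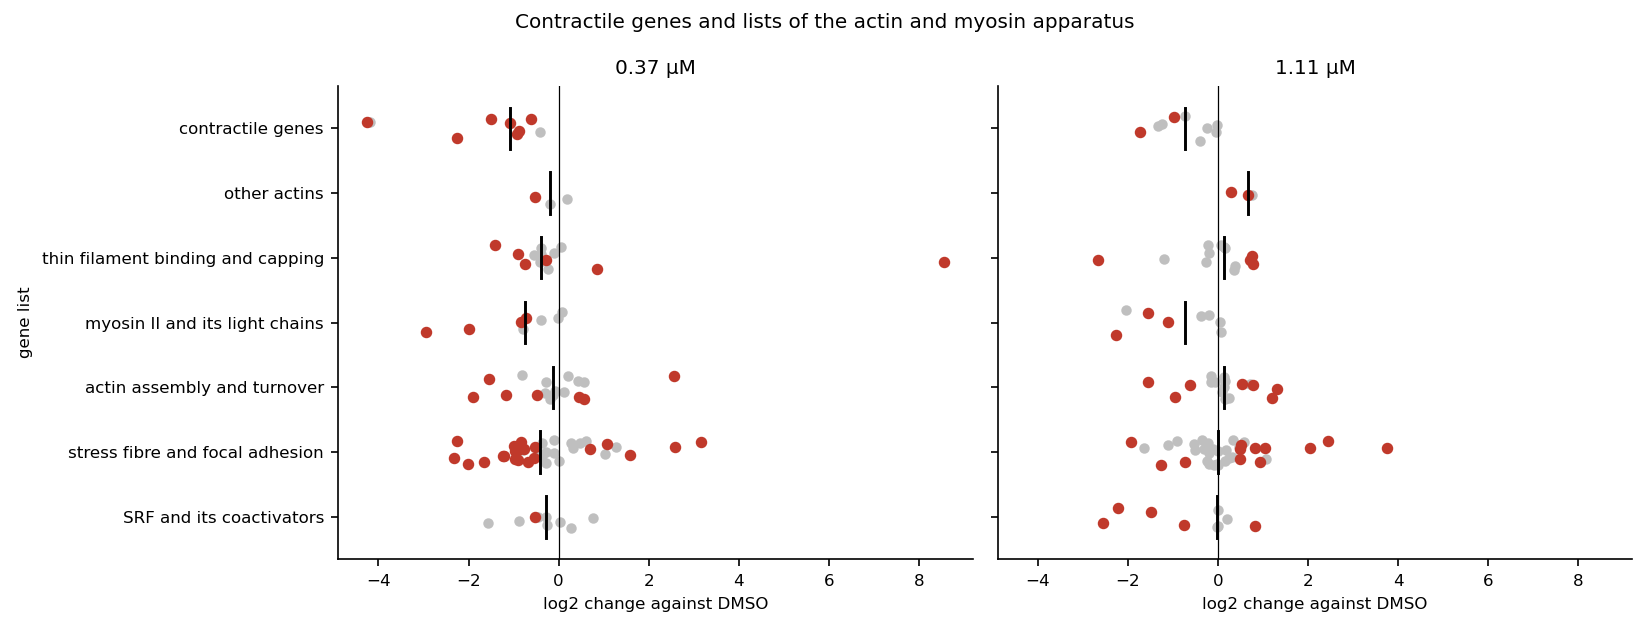
Log2 change against DMSO (horizontal axes) of each tested gene of the contractile set and of 6 of the 7 lists of the actin and myosin apparatus (vertical axis) at 0.37 and 1.11 µM. Red points have an edgeR adjusted p under 0.05, grey points do not, and black bars are list medians; the contractile genes have a median of -1.09 at 0.37 µM, and the point farthest right is TMOD1.

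Over 9 group means (DMSO and 0.0005 to 1.11 µM) each contractile gene was set against the mean of the others as log2 CPM minus its DMSO mean. Pearson's r was 0.96 for MYL9 and TPM2, 0.95 for ACTA2, 0.94 for CALD1, 0.92 for LMOD1, 0.83 for TAGLN, 0.80 for TPM1, 0.76 for MYH9 and 0.63 for CNN1. All groups share the DMSO reference and the 0.37 µM group sets much of each value, so these are descriptions. Of 1643 other genes with at least 50 CPM in DMSO and a range of at least 1 on the log2 scale, the 5 most like the mean profile were COL3A1 (r = 0.985), PDCD4 (r = 0.985), CBX5 (r = 0.985), S100A4 (r = 0.985) and CAPG (r = 0.980). COL3A1, a fibrillar collagen that is also one of the 12 fibroblast markers, as is S100A4, stood at -2.49 on this scale at 0.37 µM and at -1.47 at 1.11 µM.

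The DMSO wells gave a view of the genes without compound. In plate column 23 against column 2, with 16 wells each, 2 of 8 tested genes were lower, beside 2.83% of all genes called lower, 3.30% higher and 6.14% either way. MYL9 stood at 318 ± 22.0 CPM in column 2 and 284 ± 25.0 in column 23 (log2 change -0.17 ± 0.05, SE; edgeR adjusted p = 0.018). TPM2 stood at 555 ± 30.5 and 501 ± 42.1 CPM (log2 change -0.16 ± 0.04, SE; edgeR adjusted p = 0.012). The ranges of both genes overlapped between the columns. Without the edge rows A and P the calls of MYL9 and TPM2 were lost (edgeR adjusted p = 0.10 and 0.059) and TPM1 was called instead (log2 change -0.26, edgeR adjusted p = 0.032). ACTA2 did not move with them, at 201.5 ± 28.1 and 201.6 ± 30.2 CPM and a 95% interval of the log2 change from -0.15 to 0.13.

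**Figure D5:**
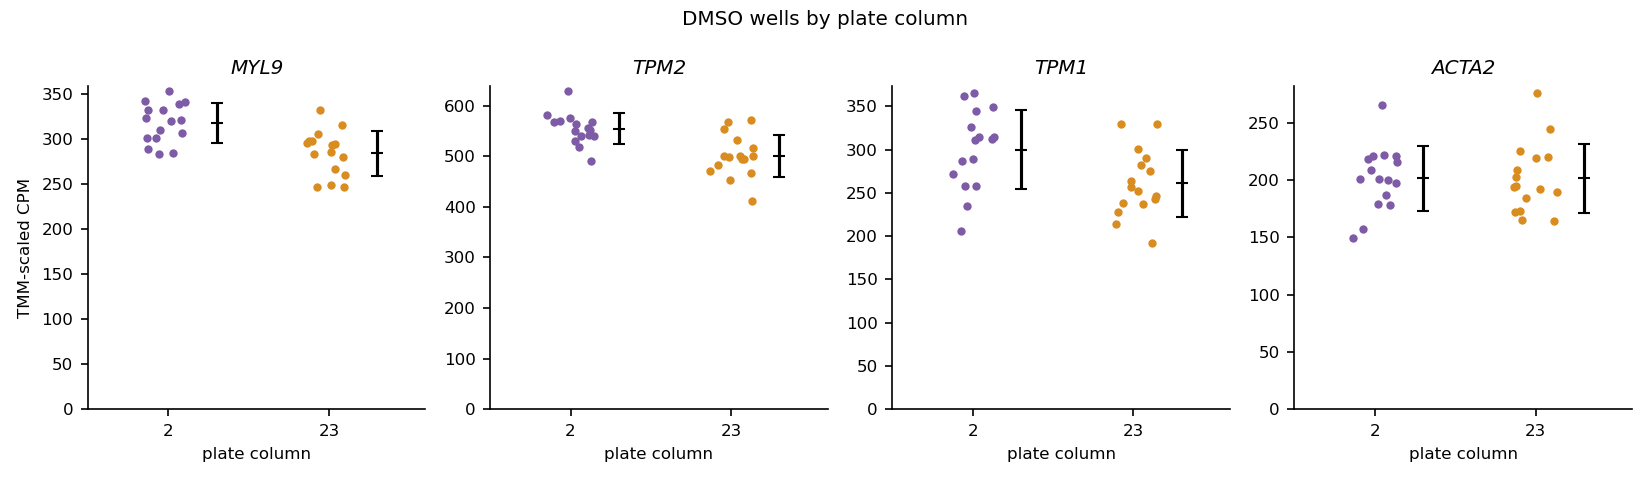
TMM-scaled CPM (vertical axes, from 0) of MYL9, TPM2, TPM1 and ACTA2 in the 32 DMSO wells by plate column (2 or 23, 16 wells each). Points are wells, bars the mean ± SD; MYL9 and TPM2 are lower in column 23, and ACTA2 has means of 201.5 and 201.6 CPM.

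Within each column it was asked whether wells with more ACTA2 held more of the other 8 tested genes, in 16 pairs of log2 CPM. None passed after Benjamini-Hochberg adjustment. The strongest relations lay in column 23. For TPM2 Pearson's r was 0.626 (two-sided permutation p = 0.0095, adjusted p = 0.12) and Spearman's rank coefficient 0.597 (permutation p = 0.016, adjusted p = 0.13), with r = 0.582 without the 2 wells farthest from the median. For MYL9 r was 0.595 (permutation p = 0.015, adjusted p = 0.12) and Spearman's rank coefficient 0.665 (permutation p = 0.0058, adjusted p = 0.093), with r = 0.522 without those wells. In column 2 MYL9 gave r = -0.0337 (permutation p = 0.90), and r = 0.451 without the 2 farthest wells, so that value rests on those wells and no difference between the columns is read from it.

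Shared sequence limits some of these values. In GENCODE release 29, 35.8% of the 31-base words in the last 400 bases of ACTA2 transcripts also occur in ACTA2-AS1 on the opposite strand, 38.1% of those of TAGLN in PCSK7, and 29.4% of those of TPM1 in opposite-strand genes. The sources used here do not say whether counting used strand, so ACTA2, TAGLN and TPM1 are uncertain, to a degree that these shares do not measure. For CNN1, MYL9, CALD1 and LMOD1 the share was 0%, for MYH9 0.18% and for TPM2 1.29%. CALD1 and LMOD1, the genes with the steepest called falls at 0.37 µM, thus shared none of these words with another gene.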

How the data were processed

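The authors deposited whole-number counts per gene and well, made with kallisto and bustools on GRCh38 per the submitters' processing notes. Tool versions, annotation, strand and collapsing of molecular identifiers are not given in the sources used here, so counting intervals and floors cover counting error only. A gene missing from a well was taken as 0. All 72 wells matched a sample. The protocol names 16 DMSO wells per plate, 32 carried that label, and all were used. A processed pseudogene with 2.96% of the counts in DMSO and 57.2% at 10 µM was left out of totals and tests. Symbols and gene IDs were paired through GENCODE release 29.

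All 72 wells were fitted together with edgeR 4.0.16 in R 4.3.3 (scaling by TMM, 10 as the filterByExpr minimum, robust quasi-likelihood F test). P-values were adjusted by Benjamini-Hochberg over 14264 genes within each comparison, threshold 0.05. The DMSO columns were compared in a fit of the 32 DMSO wells and 11259 genes. DESeq2 1.42.0 served as an alternative. Log2 CPM used a prior count of 2, and correlations 100000 resamples. Intervals are at 95%. The fit was tested on simulated counts.

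The 10 genes, the lists and the markers were chosen with earlier results of these data known. Named from each list were, at 0.12, 0.37 and 1.11 µM, up to 2 genes with the largest rise and 2 with the largest fall among those past the threshold, with a mean of at least 10 CPM and all 4 wells on 1 side of the DMSO median. Results of 1 of the 7 lists are not reported here beyond its share in the totals. SRF, MRTFA, MRTFB, MYOCD, MYLK, ACTB and ACTG1 were named regardless. Other markers gave summed DMSO levels of 343.9 to 587 CPM for keratinocytes, 0 to 5.36 for endothelium, 12.6 to 66.2 for melanocytes and 93.9 to 184 for immune cells.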

Additional observations from a re-analysis of the deposited data

Results flagged for a closer look

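In 89 groups of 4 wells, 14 had a highest or lowest well set apart from the other 3 by Dixon's criterion. Chance flags about 1 in 20 such groups where values are normally distributed. A group with counts in only 1 well is flagged whatever that count is, so 14 of 89 cannot be set against this rate.

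ACTA2 had a low well at 0.005 µM, replicate 2 at 138.5 CPM with the others between 212 and 227. It had a high well at 3.33 µM, replicate 1 at 114.7 CPM from 20 counts with the others between 0 and 5.62, and at 10 µM, replicate 4 at 598.7 CPM from 38 counts with the others between 0 and 81.5. MYL9 had a high well at 0.005 µM (replicate 4, 343.9 CPM, others 287 to 292) and at 0.04 µM (replicate 4, 388.5 CPM, others 321 to 323). CALD1 had a low well at 0.002 µM, replicate 1 at 400.3 CPM with the others between 538 and 549.

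The other flagged wells were the only ones of their group with any count. For CNN1 they held 2.15 CPM at 0.014 µM, 0.221 at 0.37 µM and 2.04 at 1.11 µM. For ACTG2 a single count gave 0.170 CPM in the 0.0005 µM group, 0.134 in the 0.014 µM, 0.121 in the 0.12 µM and 0.114 in the 0.37 µM group. LMOD1 had 3 counts, or 16.9 CPM, in replicate 3 at 3.33 µM.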

How the results depend on the processing

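Of the alternatives for single contractile genes, 1728 stayed on the same side of the threshold, 89 lost a call, 32 gained one and 5 reversed with a call in at least 1 of the fits. Of the 1728, 149 had the opposite sign without a call in either fit, among them CNN1 with the position block at 0.37 µM (0.49) and 1.11 µM (2.98). Against DMSO, the count of called contractile genes at 0.12 µM (0) became 1 with the dose and DMSO fitted alone. At 0.37 µM (7) it was 3 against the solvent wells in rows K and L, 3 with plate position as a block and 3 with the replicate number as a block, 5 with size factors, 8 by the Wald test or without the 3.33 and 10 µM wells, and 9 with dose and DMSO alone. At 1.11 µM (2) it was 4 without the 3.33 and 10 µM wells. At 3.33 µM (6) it ranged from 4 (rows K and L, replicate block) to 7 (dose and DMSO alone). At 10 µM (3) it was 5, all higher, by DESeq2's Wald test, 1 with the 0.0005 µM wells as reference, with dose and DMSO alone or with no filter, and 0 in rows K and L, with the position block or with the replicate block. Leaving out 1 replicate gave 1 to 4. DESeq2's size factors gave 3 there, all higher. From 0.12 to 0.37 µM (4) it was 2 with size factors, the position block or the replicate block, 2 to 4 with a replicate left out, and 6 with the 2 doses alone or without the 3.33 and 10 µM wells. From 0.37 to 1.11 µM (2) it was 1 with the 2 doses alone, size factors, the position block or the replicate block, 1 to 2 with a replicate left out, and 5 without the 3.33 and 10 µM wells. From 1.11 to 3.33 µM (3) it was 0 with the 2 doses alone. For the DMSO columns (2) it was 1 without the edge rows. Keeping the pseudogene, an alternative added after seeing the data, changed none of these counts.

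The 5 reversals with a call were all at 10 µM: ACTA2 at 0.78, TPM2 at 0.24 and MYH9 at 0.59 by DESeq2's Wald test, TPM2 at 0.21 with size factors, and TPM1 between -0.76 (without replicate 1) and 0.68 (without replicate 4). The cause was not tested. Same-numbered wells did not deviate together (mean r -0.01 over 144 pairs of wells, 3 over 0.1), so the numbers do not pair the wells, and the replicate block uses only DMSO replicates 1 to 4. Depth limits CNN1 and ACTG2 at every dose and all genes at 3.33 and 10 µM.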
